A study of Mus musculus with 6 samples.

Results

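The genes described here are 35 genes of mitochondrial fatty acid oxidation, out of the 54532 genes in the deposited expression table. They were chosen by name, as the carnitine shuttle, the acyl-CoA synthetases and dehydrogenases, the trifunctional protein and the other chain-shortening enzymes, the isomerases and reductase for unsaturated chains, the electron transfer flavoprotein and the thioesterases. The table holds RNA-seq of brain endothelial cells, the cells that line brain vessels, sorted from perfused brains as live CD31+, CD45- and PDGFRb- cells. All 6 libraries came from mice of 12 to 16 weeks with the genotype Df(h22q11)/+, a heterozygous deletion on chromosome 16 that models human 22q11.2 deletion syndrome, and 0 of the 35 genes lie on chromosome 16. Each library was a pool of 3 brains of mice alike in sex, genotype and chow. The untreated group (irradiated base chow) comprised 2 female pools (F_1, F_2) and 1 male pool (M_1). The bezafibrate group (chow with 0.5% bezafibrate for 4 weeks) comprised 1 female pool (F_1) and 2 male pools (M_1, M_2). Both groups carry the deletion, and wild type mice were not analysed here. The replicates are pools of separate animals, so every p-value measures the spread between pools, and differences between animals within a pool are not seen.

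Mitochondrial fatty acid oxidation begins when a synthetase joins a fatty acid to coenzyme A. The long chain is passed to carnitine to cross the mitochondrial membranes and is handed back to coenzyme A inside. Each turn of the cycle then oxidises, hydrates, oxidises again and cleaves the chain, and electrons from the first oxidation leave through the electron transfer flavoprotein. Bezafibrate is a fibrate, a drug that activates the peroxisome proliferator-activated receptors (PPARs), and many genes of this pathway are known PPAR targets in liver and muscle. The comparison asks how their mRNA differed in brain endothelium between mice fed with and without the drug.

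No gene of the pathway differed between the chow groups past the threshold. Of the 35, 33 passed the filter (a level of 1 FPKM, a read count divided by gene length and library size, in at least 3 libraries), and Cpt1b and Cpt1c did not. None of the 33 was called by limma at a Benjamini-Hochberg adjusted p under 0.05 over all 11277 genes tested, where 1 gene was called (0.00887%). The lowest adjusted p among the 33 was 0.999. At an unadjusted p under 0.05 there was 1 of the 33, the carnitine-acylcarnitine carrier Slc25a20, against 4.19% of all genes tested. No member had all 3 bezafibrate libraries above all 3 untreated ones (4.29% of all genes). Slc25a20 and Eci1 had all 3 below (4.13% of all genes). These shares of the members are near those of all genes. Estimates were higher with bezafibrate for 15 members and lower for 18, with a median log2 difference of -0.03 beside -0.01 over all genes, and they ran from -0.40 to 0.26. Differences are on the log2(FPKM + 1) scale, which understates the change of low genes.

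The precision of the comparison is given by the 95% confidence intervals, which reached a median of 0.41 to either side of the estimate. All 33 intervals lay within 1 log2 unit of 0, the lowest bound being -0.92 (Acsl4) and the highest 0.88 (Acad11). These bounds are on the log2(FPKM + 1) scale, so for low members such as Acad11 they allow a larger fold change in FPKM itself. Estimates of 24 of the 33 were within 0.2 of 0. An exact permutation test of 3 libraries against 3 cannot give a two-sided p below 0.1, so single genes were tested only in the fit over all genes. The split into higher and lower estimates differed with the scaling of the libraries: after rescaling to TPM, 21 were higher and 12 lower with a median of 0.07, while the median over all genes was 0.10.

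**Figure D1:**
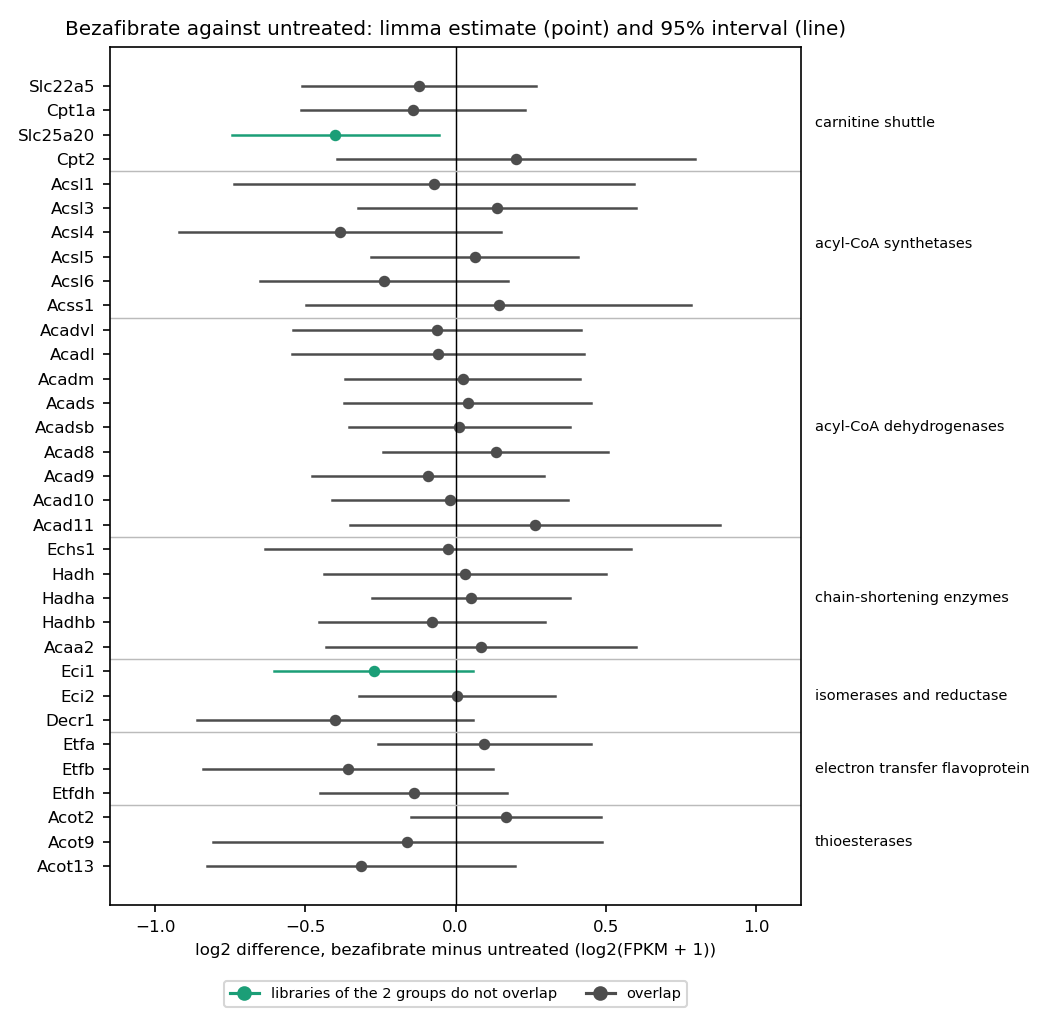
Log2 difference (bezafibrate minus untreated, log2(FPKM + 1) scale, horizontal axis) of each of the 33 measured members, grouped by role, with points for the limma estimate and lines for the 95% confidence interval. Colour marks Slc25a20 and Eci1, whose libraries did not overlap between groups, and the interval of Slc25a20 alone lies wholly below 0.

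The libraries held 16858130 to 20228619 reads as recovered from the table, and between 11060 and 11387 genes reached 1 FPKM. Levels of Xist and Ddx3y matched the labelled sex in all 6. Endothelial markers were abundant in every library (10 markers summed to 6493 to 10721 FPKM, led by the glucose transporter Slc2a1), and RNA of other brain cells was present as well. Summed levels of 8 oligodendrocyte markers were 494 to 1036 FPKM in untreated and 420 to 901 in bezafibrate libraries, and those of 7 pericyte markers 183 to 324 and 172 to 249. Astrocyte markers (8) summed to 42.6 to 61.8 and 27.8 to 50.6 FPKM. Ependymal and choroid plexus markers (7) summed to 360 to 404 FPKM in untreated and 409 to 941 in bezafibrate libraries, led by Ttr at a mean of 495. These sums did not overlap, but bezafibrate F_1 (409) was just above untreated F_1 (404). Of all single genes tested, 8.42% did not overlap between the chow groups. All 7 estimates were higher with bezafibrate. Of the other marker lists, 9 of 10 endothelial, 7 of 7 pericyte, 8 of 8 astrocyte and 8 of 8 oligodendrocyte estimates were lower. So were 3 of 4 measured smooth muscle, 1 of 2 neuronal, 3 of 4 microglial and macrophage and 1 of 2 erythrocyte estimates. No marker of any list was called. The neuronal markers Snap25, Syt1, Rbfox3, Slc17a7 and Gad1 and the leukocyte and microglial markers Cx3cr1, Aif1 and Ptprc were below 1 FPKM in every library. Other markers of these lists were present. The filter was passed by 2 of the 7 neuronal markers, led by Stmn2 at a mean of 12.0 FPKM. It was passed by 4 of the 7 microglial and macrophage markers, led by C1qa at 3.93 FPKM. The part of other cells in the members' values was not tested, and in bulk RNA fewer cells of a type and less RNA per cell cannot be told apart.

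The carnitine shuttle brings long chains into mitochondria, and its entry enzyme was among the most abundant members. Upstream sequences of 2 shuttle genes are shown because Cpt1a is the regulated step of entry and Slc25a20 had the smallest p of the 33. The last stretch, the whole interval between the head-to-head genes Hadha and Hadhb, is shown because the 2 trifunctional protein subunits share it as their upstream region. The sequences are from RefSeq on GRCm38.p6, plus strand, and end before the first annotated exon base. Capitals mark TGACCT, which is AGGTCA, the site that PPARs and other nuclear receptors are known to bind, read on the other strand.
Cpt1a, chr19:3323051-3323284: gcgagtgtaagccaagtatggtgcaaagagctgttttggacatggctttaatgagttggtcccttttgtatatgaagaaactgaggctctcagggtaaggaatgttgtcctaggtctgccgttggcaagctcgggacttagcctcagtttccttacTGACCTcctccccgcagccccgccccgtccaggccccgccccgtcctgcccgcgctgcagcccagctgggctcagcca
Slc25a20, chr9:108661886-108662087: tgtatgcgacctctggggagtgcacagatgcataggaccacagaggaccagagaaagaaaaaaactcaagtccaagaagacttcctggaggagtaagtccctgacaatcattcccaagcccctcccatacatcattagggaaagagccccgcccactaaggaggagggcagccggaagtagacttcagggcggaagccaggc
Hadha to Hadhb, chr5:30155163-30155247: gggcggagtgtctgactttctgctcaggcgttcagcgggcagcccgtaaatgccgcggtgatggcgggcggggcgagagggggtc

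The Cpt1a stretch holds 1 such site, which starts 94 bases before the RefSeq start of the gene (3323301), and the other 2 stretches hold none. The first annotated exon base of Cpt1a lies before that start, so the stretch ends at 3323284. Windows from 250 bases before to 50 bases after the start were found in RefSeq for 30 of the 35 members (33 windows). None held, on either strand, the direct repeat in which 2 copies of AGGTCA are spaced by 1 base of any kind, which 0.0396% of all 32851 windows hold, and none held it with at most 1 mismatch (0.554% of all). The single site AGGTCA, which is part of that repeat, was in the windows of 6 of the 30 genes (Acadm, Acadvl, Acsl6, Cpt1a, Cpt1c and Echs1), and 18.1% of all genes have it. These are matches of letters in a short window.

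Values of a gene are given below in the order untreated F_1, F_2, M_1 and then bezafibrate F_1, M_1, M_2. Slc22a5, the plasma membrane carrier that takes carnitine into the cell, was at 20.0, 18.2 and 14.1 FPKM and then 13.9, 17.0 and 16.6 (chromosome 11, 53864542 to 53891660, GRCm38). The groups overlapped, with untreated M_1 and bezafibrate F_1 lowest, and the log2 difference was -0.12 (95% interval -0.51 to 0.27). Of its 75-base words, 17.1% also occur in the neighbouring carnitine carrier Slc22a21, which averaged 3.92 FPKM, so some reads could belong to either.

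Cpt1a, the outer membrane enzyme that moves the acyl chain to carnitine and is inhibited by malonyl-CoA, was at 43.3, 40.3 and 47.5 FPKM and then 47.2, 38.5 and 33.8. The untreated libraries averaged 43.7 ± 3.59 and the bezafibrate libraries 39.8 ± 6.83 (SD, n = 3), on 2728 to 3791 recovered reads per library. The 2 lowest values were both from bezafibrate males, while bezafibrate F_1 was the second highest after untreated M_1. The log2 difference was -0.14 (SE 0.160, 95% interval -0.51 to 0.23). Over the 19 alternatives it stayed between -0.27 and -0.03.

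The muscle form Cpt1b was at 0, 0.0333 and 0 FPKM and then 0.0989, 0.167 and 0, that is at most 12 reads in a library and 20 over all 6. Its exons share 81.4% of their bases with the readthrough gene Gm44502, to which the table gives 0 reads. Reads in shared bases may not have been counted, so the level of Cpt1b could be understated. Cpt1c, the form known from neurons, where it sits in the endoplasmic reticulum, was at 1.10, 0.741 and 0.557 FPKM and then 0.545, 0.378 and 1.08. The highest and the second highest value of Cpt1c came from different groups. Of the 3 forms of the entry enzyme, Cpt1a alone passed the filter on low values.

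Slc25a20, the inner membrane carrier that exchanges acylcarnitine for carnitine, was at 6.05, 7.53 and 7.62 FPKM and then 5.29, 4.54 and 5.47 (chromosome 9, 108662088 to 108684641). All 3 bezafibrate values lay below the lowest untreated value. Means were 7.06 ± 0.882 and 5.10 ± 0.491 (SD, n = 3), and the log2 difference was -0.40 (SE 0.148, 95% interval -0.74 to -0.06). The unadjusted p was 0.0282 and the adjusted p 0.999 in limma, so it was not called. Its estimate was between -0.49 and -0.33 under all 19 alternatives, with 0.325 as the lowest adjusted p.

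Cpt2, the inner membrane enzyme that returns the chain to coenzyme A, was at 7.03, 7.58 and 9.93 FPKM and then 6.69, 8.91 and 14.0. Bezafibrate M_2 stood highest and bezafibrate F_1 lowest, so the treated libraries enclosed the untreated ones. The log2 difference was 0.20 (95% interval -0.39 to 0.80), and without bezafibrate M_2 it was -0.06. Levels of Cpt1a were 5.01 ± 1.61 times those of Cpt2 and 7.05 ± 1.41 times those of Slc25a20 per length of the table (SD over 6 libraries).

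**Figure D2:**
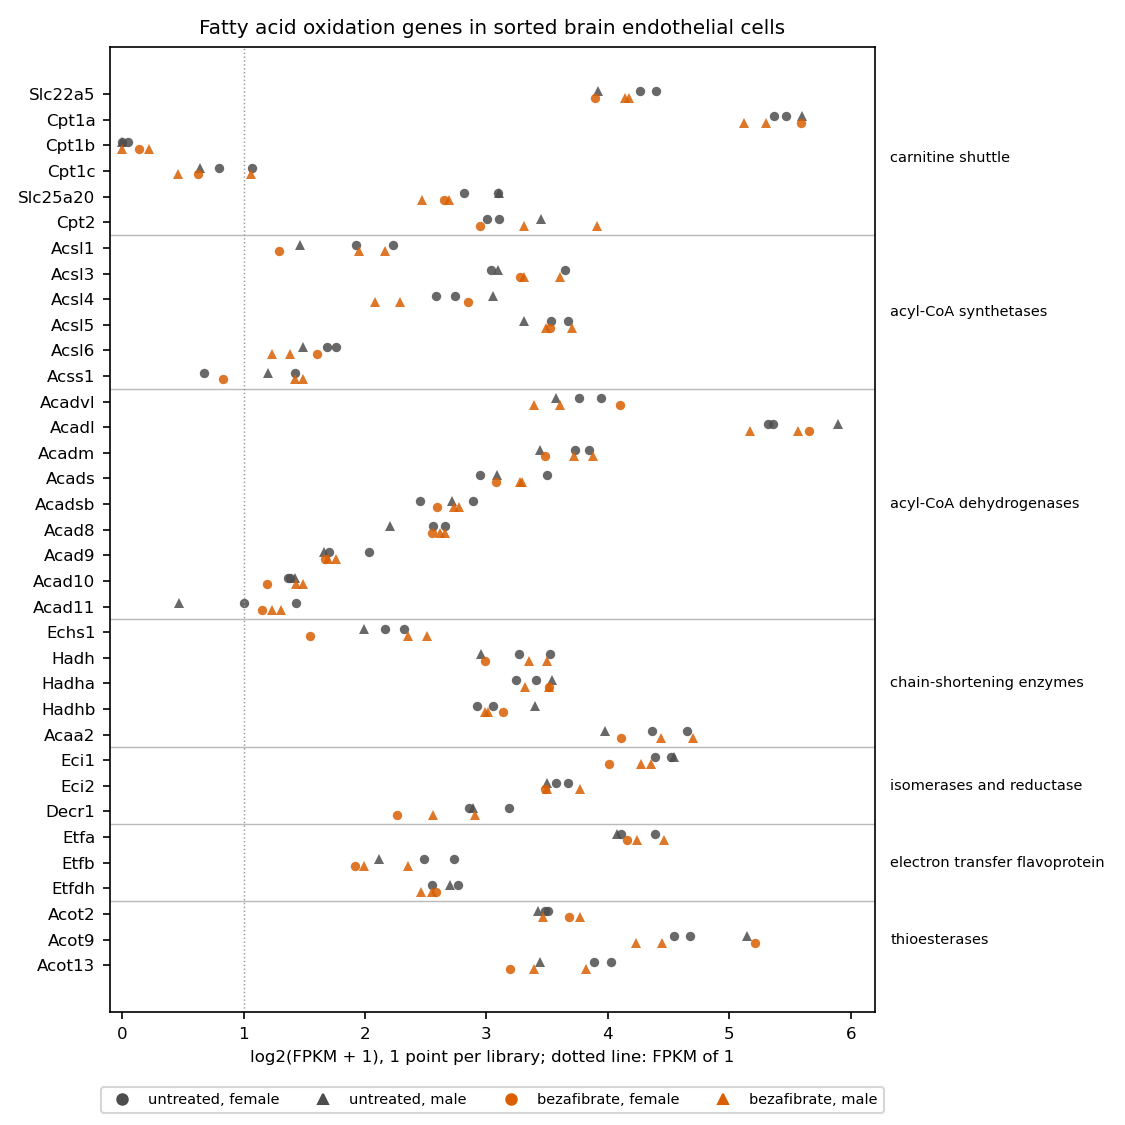
Level of the 35 members in each library (log2(FPKM + 1), horizontal axis), grouped by role, with 1 point per library, colour for chow and shape for sex; the dotted line marks 1 FPKM. Acadl, Cpt1a and Acot9 have the highest means (44.7, 41.8 and 26.0 FPKM) and Cpt1b lies at or near 0, and the 2 chow groups overlap for all measured members except Slc25a20 and Eci1.

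Acyl-CoA synthetases activate fatty acids before they enter the shuttle, and all 6 in the set were measured. Estimates with bezafibrate were higher for 3 and lower for 3. Acsl5, a long-chain form found on mitochondria and the endoplasmic reticulum, had the highest mean and was at 11.7, 10.6 and 8.94 FPKM and then 10.5, 12.0 and 10.2, with overlapping groups and a log2 difference of 0.06 (95% interval -0.28 to 0.41). Acsl3, a form known from lipid droplets, was at 11.5, 7.23 and 7.55 FPKM and then 8.71, 11.2 and 8.89, a difference of 0.14 (-0.32 to 0.60). Acsl6, known from brain, was at 2.38, 2.21 and 1.81 FPKM and then 2.03, 1.60 and 1.36. It was lowest in bezafibrate M_2, and its difference was -0.24 (-0.65 to 0.17).

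Acsl4, which prefers arachidonic acid, was singled out after its values were seen, for the lowest bound of the set. It was at 5.70, 4.99 and 7.28 FPKM and then 6.22, 3.88 and 3.24. The 2 male bezafibrate libraries were lowest and the female one was above 2 of the untreated libraries, and the log2 difference was -0.38 (95% interval -0.92 to 0.15). Acsl1, the form known as a PPAR target in liver, had a mean of 2.68 FPKM and varied 2.55-fold between its lowest and highest library. The mitochondrial acetyl-CoA synthetase Acss1 had the lowest mean of the role, 1.31 FPKM, and varied 3.01-fold.

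Acyl-CoA dehydrogenases carry out the first oxidation and differ in the chain length they prefer. All 9 were measured; 5 estimates were higher and 4 lower, and 8 of the 9 were within 0.2 of 0. Acadl, the long-chain enzyme, had the highest mean of all members and a level above 91.8% of all genes tested. It was at 40.1, 38.9 and 58.5 FPKM and then 49.5, 35.0 and 46.4, on 1389 to 2178 recovered reads. Untreated M_1 was highest and bezafibrate M_1 lowest, and the log2 difference was -0.06 (95% interval -0.54 to 0.43). Acadvl, the very long-chain enzyme bound to the inner membrane, was at 12.6, 14.4 and 10.9 FPKM and then 16.1, 11.2 and 9.51, which differed by -0.06 (-0.54 to 0.42).

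The other dehydrogenases spanned means of 1.19 to 11.9 FPKM. Acadm, the medium-chain enzyme, averaged 11.8 ± 1.79 FPKM without and 12.0 ± 1.75 with bezafibrate (SD, n = 3), and the short-chain enzyme Acads 8.17 ± 1.89 and 8.32 ± 0.744. Acadsb and Acad8, which act in the breakdown of branched amino acids, had means of 5.50 and 4.86 FPKM over all libraries. Acad9, which is also an assembly factor of respiratory complex I, averaged 2.39 FPKM, and 10.6% of its 75-base words occur in Gm43079 and others. Acad10 was at 1.58, 1.60 and 1.68 FPKM and then 1.28, 1.81 and 1.70, with a log2 difference of -0.02 (95% interval -0.41 to 0.37). Of the 75-base words of Acad10, 11.4% also occur in Acad12, which averaged 2.17 FPKM, so some reads could belong to either. Acad11 had the lowest mean of the measured members and the widest spread, 4.39-fold between 0.385 FPKM in untreated M_1 and 1.69 in untreated F_1. Its estimate of 0.26 was the highest of the set (-0.35 to 0.88).

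The chain-shortening enzymes hydrate, oxidise and cleave the chain, and their 5 estimates all lay within 0.2 of 0, with 3 higher and 2 lower. Acaa2, the thiolase that makes the final cut, led the role at 24.1, 19.6 and 14.8 FPKM and then 16.2, 20.7 and 25.1. Its groups spanned almost the same range, with the lowest values in untreated M_1 and bezafibrate F_1, and differed by 0.09 (95% interval -0.43 to 0.60). Hadh, the short-chain hydroxyacyl-CoA dehydrogenase, averaged 8.64 ± 1.88 and 8.82 ± 1.72 FPKM (SD, n = 3). Echs1, the short-chain enoyl-CoA hydratase, averaged 3.49 ± 0.513 and 3.57 ± 1.46 FPKM.

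Hadha and Hadhb encode the alpha and beta subunits of the trifunctional protein, which carries out 3 steps of the cycle on long chains. They start 85 bases apart on opposite strands of chromosome 5, at the interval printed above. Hadha was at 8.48, 9.63 and 10.6 FPKM and then 10.4, 8.97 and 10.4, a log2 difference of 0.05 (95% interval -0.28 to 0.38). Hadhb, named after its values were seen as the partner of Hadha, was at 6.58, 7.28 and 9.56 FPKM and then 7.78, 7.07 and 6.94, a difference of -0.08 (-0.46 to 0.30). Both genes were lowest in untreated F_1 and highest in untreated M_1. Their ratio was 1.24 ± 0.113 without and 1.37 ± 0.121 with bezafibrate (SD, n = 3). Words of 75 bases shared with the pseudogene Gm13910 and others make up 16.7% of Hadhb, and Gm13910 was listed at a mean of 12.0 FPKM, so the share of reads between them is uncertain.

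Isomerases and a reductase prepare unsaturated chains for the cycle. Eci1, which moves a double bond in the chain, was at 20.0, 22.0 and 22.4 FPKM and then 15.1, 18.3 and 19.5. The lowest untreated library was just above the highest bezafibrate library, the means were 21.4 ± 1.28 and 17.6 ± 2.25 (SD, n = 3), and the log2 difference was -0.27 (95% interval -0.61 to 0.06). Eci2, its peroxisomal and mitochondrial relative, was at 10.9, 11.7 and 10.3 FPKM and then 10.2, 10.3 and 12.6, and the interval of its difference was -0.32 to 0.33. Decr1, the dienoyl-CoA reductase, was named after its values were seen because its estimate was the lowest of the set. It was at 8.10, 6.25 and 6.41 FPKM and then 3.80, 4.90 and 6.50, where bezafibrate M_2 was above 2 untreated libraries, and it differed by -0.40 (-0.86 to 0.06).

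The electron transfer flavoprotein takes electrons from the dehydrogenases and passes them through Etfdh to ubiquinone. Etfa, its alpha subunit, was at 19.9, 16.3 and 15.8 FPKM and then 16.8, 17.9 and 21.02, a log2 difference of 0.10 (95% interval -0.26 to 0.45). Etfdh was at 4.87, 5.80 and 5.50 FPKM and then 4.98, 4.52 and 4.88, and its difference was -0.14 (-0.45 to 0.17). The beta subunit Etfb, described here as the partner of Etfa, averaged 4.53 ± 1.16 and 3.29 ± 0.729 FPKM (SD, n = 3), on only 58 to 117 recovered reads per library. The ratio of Etfa to Etfb mRNA was 4.91 ± 1.47 over the 6 libraries (SD). Exons of Etfb share 58.2% of their bases with Gm45233, to which the table gives 0 reads. Reads in shared bases may not have been counted, and the part of this in the ratio was not tested.

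Thioesterases release fatty acids from coenzyme A again. Acot9, on the X chromosome, was at 22.3, 24.6 and 34.5 FPKM and then 36.0, 20.8 and 17.8, the third highest mean of the set. Untreated M_1 and bezafibrate F_1 stood above the other 4 libraries, and the log2 difference was -0.16 (95% interval -0.81 to 0.49). Acot13 was at 13.8, 15.3 and 9.84 FPKM and then 8.14, 9.48 and 13.2, a difference of -0.32 (-0.83 to 0.20) with overlapping groups. Acot2, the mitochondrial matrix form, averaged 10.1 ± 0.313 and 11.5 ± 1.34 FPKM (SD, n = 3), a difference of 0.17 (-0.15 to 0.48), and 21.2% of its 75-base words occur in Acot1, Acot5 or Acot4.

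Sex was compared with chow as a covariate, since 2 untreated libraries were female and 2 bezafibrate libraries male. No member was called, against 3 genes (0.0266%) over all genes tested, and the median log2 difference (male minus female) of the members was -0.02. Unadjusted p was under 0.05 for 2 of 33, Cpt2 and Acadvl, against 2.94% of all genes. All 3 male libraries were above all 3 female ones for Cpt2 and Acad10 (4.0% of all genes) and below them for Acadvl and Acsl6 (3.94%). Cpt2 averaged 11.0 ± 2.72 FPKM in males and 7.10 ± 0.449 in females (SD, n = 3), a difference of 0.53 (95% interval 0.03 to 1.03). Acadvl averaged 10.5 ± 0.898 in males and 14.3 ± 1.77 in females, a difference of -0.44 (-0.84 to -0.04). Their limma p-values were 0.0409 and 0.0363, and each had an adjusted limma p of 1.0. Without bezafibrate F_1, the only treated female library, the differences were 0.40 and -0.28. Exons of Acadvl share 42.9% of their bases with Dvl2 on the opposite strand, and whether reads were counted by strand is not stated in the labels. The 2 members on the X chromosome, Acsl4 and Acot9, differed by -0.14 and -0.17 with intervals that included 0.

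**Figure D3:**
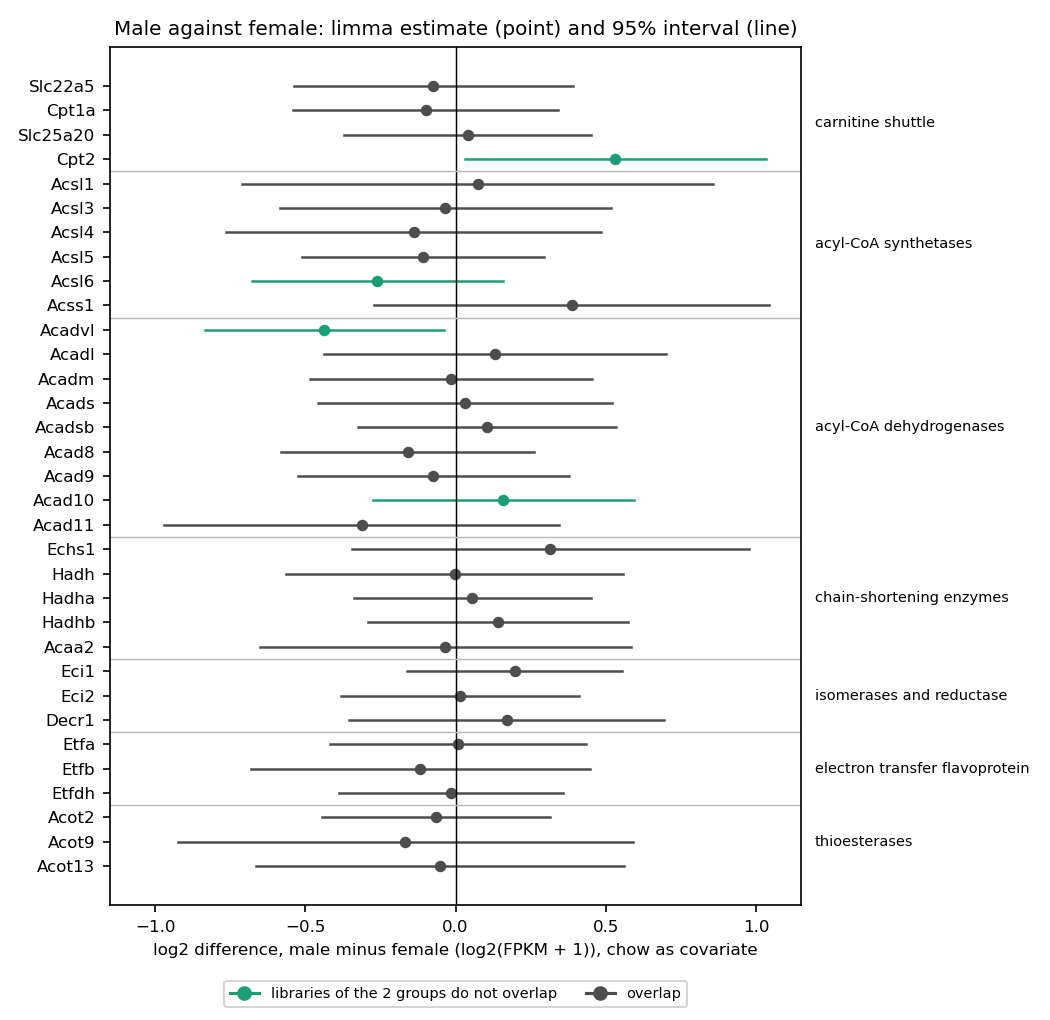
Log2 difference (male minus female, log2(FPKM + 1) scale, horizontal axis) of the 33 measured members from limma with chow as covariate, with 95% confidence intervals as lines. Colour marks Cpt2, Acad10, Acadvl and Acsl6, whose libraries did not overlap between the sexes, and the intervals of Cpt2 and Acadvl exclude 0.

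Across the members, 2 libraries from different chow groups often stood together. Untreated M_1 and bezafibrate F_1 were the 2 lowest of the 6 libraries for 9 members (Slc22a5, Acsl1, Acadm, Acad8, Acad9, Echs1, Hadh, Acaa2 and Eci2), 27.3% of the 33 beside 14.9% of all genes tested. The same libraries were the 2 highest for 6 members (Cpt1a, Acsl4, Acadl, Hadha, Hadhb and Acot9), 18.2% beside 17.1% of all genes. They also differ in sex. Acsl1 shows the first form, at 3.71, 2.80 and 1.76 FPKM and then 1.45, 2.86 and 3.48, and Acot9 the second. The 2 libraries also had the highest summed endothelial markers (10721 and 10172 FPKM, against 6493 to 9206 in the other 4) and oligodendrocyte markers (1036 and 901 against 420 to 596), and the part of those cells in the pattern was not tested. Without both libraries the groups, then of 2 each, did not overlap for 13 of the 33 members, beside 38.0% of all 10734 genes then tested, and 0 members were called.

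**Figure D4:**
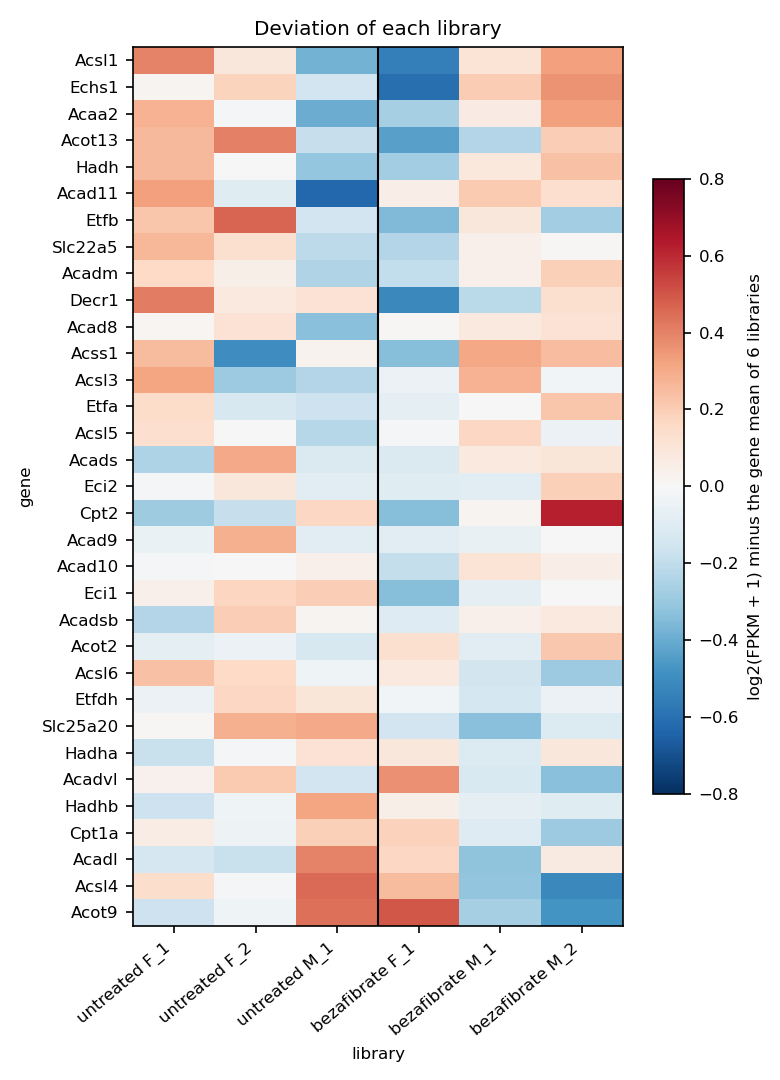
Deviation of each measured member from its mean over the 6 libraries (log2(FPKM + 1) scale, colour) in each library (columns), with members in rows ordered by their mean deviation in untreated M_1 and bezafibrate F_1. Untreated M_1 and bezafibrate F_1 share low values for 9 members such as Acsl1, Hadh and Acaa2, and high values for 6 such as Acot9, Acadl and Acsl4.

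Those 2 libraries are also the only ones in their cells of the chow-by-sex design, so a test of whether the chow difference depended on sex cannot be told apart from them. In that fit, added after the data were seen, no member was called, against 75 genes (0.665%) over all genes tested. Unadjusted p was under 0.05 for 10 of the 33 (Slc22a5, Acsl1, Acsl4, Acadl, Acadm, Echs1, Hadh, Acaa2, Acot9 and Acot13), 30.3% beside 21.3% of all genes. Acot9 had the smallest, 0.00166, with an adjusted limma p of 0.0636.

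The order of the members by level depended on the gene length by which reads were divided. For 32 of the 35 the table's length equals the union of all annotated exons, and for 14 that is over 1.5 times the principal transcript. The exceptions were Cpt1a (4300 bases against a union of 7642), Eci1 (1091 against 2127) and Acaa2 (1515 against 1516). Levels by the table's length, such as that of Cpt1a beside Slc25a20, therefore do not all follow the same length rule. With the length of the principal transcript, chosen as an alternative after the data were seen, 21 members instead of 13 had a mean of at least 10. Echs1 moved most: its table length of 8286 bases is 5.32 times its principal transcript of 1557, and its mean level changed from 3.53 to 18.8. Hadha changed from 9.77 to 21.2 and Hadhb from 7.53 to 24.3, which turned their mean ratio from 1.31 ± 0.127 to 0.882 ± 0.0859 (SD over 6 libraries). Slc25a20 changed from 6.08 to 16.5, and Cpt1a was then 2.59 times Slc25a20. The mean of Cpt1c, which failed the filter at the table's length, changed from 0.734 to 1.47. Acadl and Cpt1a were the highest under both lengths. A chow difference divides by the same length in every library, but the 1 added before the log2 weighs more at a lower level. The length can therefore still change the size of an estimate. With 0.1 added instead of 1, the estimate of Slc25a20 was -0.46 instead of -0.40. Chow differences with the principal transcript length were not computed.

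**Figure D5:**
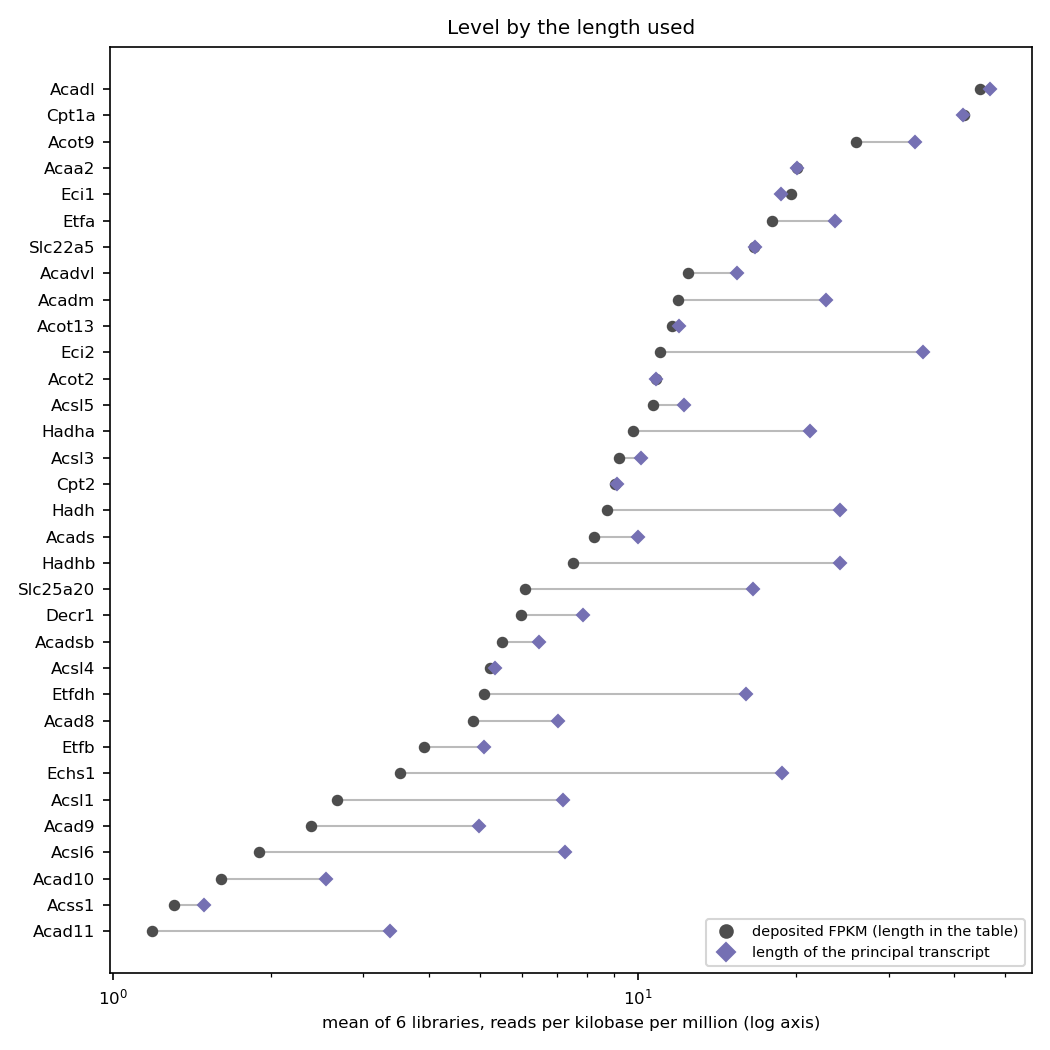
Mean level over the 6 libraries (log axis) of each measured member by the table's gene length (circle) and by the length of its principal transcript (diamond), joined by a line. The line is longest for Echs1 (3.53 to 18.8), while Acadl and Cpt1a at the top hardly move.

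Of 71 further genes of the pathway and its control, chosen by name, 51 were measured and 0 were called, with 29 estimates higher and 22 lower with bezafibrate and a median of 0.02. None had an unadjusted p under 0.05. Among 19 further beta-oxidation and acyl-CoA genes 11 were higher and 8 lower, among 3 of carnitine supply 1 and 2, among 10 ketone body and propionyl-CoA genes 6 and 4, and among 10 regulators of entry 7 and 3. The groups did not overlap for 2 genes. Etfrf1, a regulator of the electron transfer flavoprotein, was at 4.41, 3.93 and 2.09 FPKM and then 4.76, 5.33 and 5.65, a log2 difference of 0.52 (95% interval -0.01 to 1.04). Etfbkmt, which methylates Etfb, was at 1.30, 1.01 and 1.08 FPKM and then 0.356, 0.942 and 0.554, a difference of -0.41 (-0.91 to 0.09).

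The receptors that bezafibrate activates differed widely in level. Ppard was at 21.4, 27.7 and 30.9 FPKM and then 28.5, 21.9 and 25.4, a log2 difference of -0.07 (95% interval -0.48 to 0.34). Ppara was below the filter at 0.117 to 0.402 FPKM in untreated and 0.139 to 0.449 in bezafibrate libraries, and Pparg at 0.0505 to 0.551 and 0.0637 to 0.452. Among the 9 measured receptors and co-regulators, 4 estimates were higher and 5 lower.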

How the data were processed

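Expression was measured by RNA-seq in 6 libraries (3 untreated, 3 bezafibrate), each a pool of 3 brains. Per the labels' protocols, cDNA was made with SMART-Seq HT, libraries with Nextera XT, and single-end reads of 75 bases were de-duplicated and mapped with Salmon; the submitters' processing notes name GRCm38. The authors deposited FPKM per gene; the sources used here do not give how libraries were scaled, which annotation was used or whether strand was counted. Each deposited FPKM times its gene length was a whole multiple of the value of 1 read (100% of values, tolerance 0.01), which gave reads per gene and depths of 16858130 to 20228619. The library sizes behind the FPKM differ from these sums by factors of 0.888 to 1.09.

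Genes that reached 1 FPKM in 3 or more libraries were fitted on log2(FPKM + 1) with limma 3.58.1 (R 4.3.3, lmFit and eBayes with trend), two-sided, with Benjamini-Hochberg adjustment over all 11277; the threshold for a call was an adjusted p of 0.05. Treatment had no covariate, since the labels state that the sexes were analysed together after a check by sex; sex had chow as covariate. The fit was tested on simulated data with changes larger than any member estimate, so that test does not cover differences of the size reported here. Gene positions, principal transcripts and shared 75-base words came from the GENCODE M21 annotation of GRCm38, and promoters from RefSeq. One column's number differs from its library's title and was matched through the sample's description.

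The members and lists were chosen with earlier results of these data known. Values in every library are given for the carnitine shuttle, for members whose groups did not overlap or with unadjusted p under 0.05 (chow or sex), for the 3 highest means and for the 1 or 2 highest of each role; others by range and counts. Other pathway genes are named where the groups did not overlap, plus Ppara, Ppard and Pparg. Alternatives changed the pseudocount, filter, scaling, weights, variance prior, covariate, block and libraries.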

Additional observations from a re-analysis of the deposited data

How the results depend on the processing

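No member was called under any of the 19 alternatives of the treatment comparison, and the lowest adjusted p was 0.325 (Slc25a20 with array weights). Of 618 member estimates under alternatives, 550 kept the sign and 68 changed it, and 13 members never changed sign. The alternatives of the filter and of the variance prior leave each estimate as reported, so their signs could not change and add to the 550. Members at an unadjusted p under 0.05, 1 as reported, were 0 with TPM, limma-voom on recovered reads and the replicate block, 3 with array weights and 2 without untreated M_1 and bezafibrate F_1 together. That last setting also left 13 members without overlap (2 as reported; 38.0% of all genes) and 0 genes called over all. All genes called, 1 as reported, were 0 with limma-voom and 2 without a trend in the variance prior. The median of the members was 0.065 with TPM and 0.056 with limma-voom. Members at a mean of at least 10 were 21 with the principal transcript length and 13 as reported.

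Some estimates changed sign from the reported one. With TPM, they were Acsl1 0.011, Acadvl 0.048, Acadl 0.057, Acad10 0.074, Echs1 0.065 and Hadhb 0.028. With limma-voom, they were Acadvl 0.056, Acadl 0.047, Acad10 0.069, Echs1 0.041 and Hadhb 0.019. With array weights, they were Acads -0.094, Acadsb -0.062, Acad10 0.043, Echs1 0.020 and Eci2 -0.049. Without both libraries, they were Acsl5 -0.0079, Acadl 0.029, Acad10 0.087, Echs1 0.18 and Hadhb 0.014. With sex as a covariate, they were Acadvl 0.084, Acadsb -0.023 and Eci2 -5.2e-04. With quantile scaling, the estimate was Acadl 0.014. Centred on the median of all genes, it was Eci2 -4.9e-04. The causes were not tested.

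With the replicate block (libraries that share the name F_1 or M_1), 0 members and 0 genes over all were called, and the estimates that changed sign were Cpt2 -0.10, Acss1 -0.16, Acadvl 0.18, Acadm -0.037, Acad9 2.0e-04, Hadh -0.069, Acaa2 -0.040, Eci2 -0.044 and Etfa -0.031. Libraries F_2 and M_2 have no library of the same name in the other group, so the block estimates rest on the F_1 and M_1 pairs. Across genes, deviations of the same-named libraries from their group means correlated at -0.36 (F_1) and -0.30 (M_1), so the names were not taken as pairs. The names are those of the library titles. By its column number the untreated male library would be M_2, and it correlated at -0.16 with bezafibrate M_2.

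Leaving out 1 library at a time moved the members at unadjusted p under 0.05 between 0 and 2 and the members without overlap between 2 and 8, the highest without bezafibrate F_1, where 27.2% of all genes tested did not overlap. All genes called moved between 0 (without bezafibrate M_1 or M_2) and 3 (without bezafibrate F_1). The median of the members moved between -0.081 and 0.055, and their median between the sexes between -0.14 (without bezafibrate F_1) and 0.16 (without untreated M_1). Estimates whose sign changed ranged over Cpt2 -0.060 to 0.42, Acsl1 -0.28 to 0.18, Acsl5 -0.033 to 0.15, Acss1 -0.069 to 0.35, Acadvl -0.26 to 0.091, Acadl -0.16 to 0.13, Acadm -0.091 to 0.13, Acads -0.074 to 0.20, Acadsb -0.10 to 0.11, Acad8 -0.0012 to 0.23, Acad9 -0.16 to 0.026, Acad10 -0.077 to 0.072, Echs1 -0.21 to 0.27, Hadh -0.12 to 0.18, Hadha -0.024 to 0.12, Hadhb -0.18 to 0.059, Acaa2 -0.092 to 0.25, Eci2 -0.089 to 0.055 and Acot9 -0.45 to 0.037. By their total over the 6 libraries, Cpt1b, Cpt1c, Etfb and Acss1 had the fewest recovered reads of the 35 members, at 0 to 12, 45 to 124, 58 to 117 and 44 to 158 per library.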
